A study of Mus musculus with 6 samples.

Results

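The cytoskeletal motors examined here are the kinesins, cytoplasmic dynein and its cofactor dynactin, read in germ cells of wild-type C57BL/6J/B6 adult male mice. The members are the transcripts whose gene symbol is Kif or Klc followed by a digit, or begins with Dync1, Dctn or Dynl. The rule goes by name, and whether each light chain, such as those of the Dynlt2a genes, serves cytoplasmic dynein was not examined. The rule found 72 of 11517 annotated transcripts, from 40 genes: 18 kinesin, 16 dynein and 6 dynactin genes. Native polyadenylated RNA was sequenced on nanopores, so that each read gives the transcript and the poly(A) tail length of an mRNA molecule. Pachytene and diplotene (P/D) spermatocytes and round spermatids (RS) were sorted from testis cells by Hoechst fluorescence and light scatter after dead cells had been excluded, with 3 samples of each cell type and the mRNA of 3 mice pooled in each. By microscopy the authors found many cells of other kinds in the sorted P/D fraction, and fewer in the RS fraction. The part of these other cells in the differences was not tested. P/D spermatocytes and RS were taken from shared animals, but which mice make up a pool of each number is not stated. No treatment, transgene or mutation was involved. The P/D samples were barcoded into 1 sequencing library and the RS samples into another, so the cell type and the library cannot be told apart. The question was how tails and accumulation of motor transcripts differ between the cell types.

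Kinesins and cytoplasmic dynein walk along microtubules in opposite directions. Most kinesins move toward the plus end, and kinesin-13 proteins instead take microtubules apart. Cytoplasmic dynein carries cargo toward the minus end as a large complex of a heavy chain, which is the motor, with intermediate, light intermediate and light chains, and it needs dynactin to move far. In spermatocytes the motors build and use the meiotic spindles. In spermatids they serve the manchette, the microtubule skirt that shapes the nucleus, and the transport that builds the flagellum. The poly(A) tail is bound by poly(A)-binding proteins and is known to affect how long an mRNA lasts and how it is translated.

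The 3′ end of a transcript is where the tail is added, and for near-identical genes it shows how alike the copies are where a read begins. The last 30 bases of GENCODE vM21 (GRCm38) transcripts are given in the 5′ to 3′ direction of the mRNA. Capitals mark the match to a polyadenylation signal (AATAAA, or its variant ATTAAA) nearest the end, whether or not it is the one used. Dctn2 had the largest tail increase among members that reached 20 reads in all samples, Dynlrb2 was the only member called with a shorter tail, and Kif2b had the largest rise in accumulation among members with more than 3 P/D reads. The Dynlt1 and Dynlt2a ends are shown because those copies share sequence, and positions are of the last base of the transcript.
Dctn2 (chromosome 10, 127281950, forward strand): agagctaAATAAAaaaatgagtacagagtc
Dynlrb2 (chromosome 8, 116515915, forward strand): acttttgctgtatAATAAAaaaattctgct
Kif2b (chromosome 11, 91575315, reverse strand): ggagaatttacatcttaaagcaccctggtc
Dynlt1b (chromosome 17, 6436296, forward strand): tcttagaataataaattattcaaaATTAAA
Dynlt1f (chromosome 17, 6648938, reverse strand): tcttagaataataaattattcaaaATTAAA
Dynlt2a1 (chromosome 17, 15027154, reverse strand): ccatccttcaaAATAAAtgatatatacaga
Dynlt2a2 (chromosome 17, 14995816, reverse strand): tgaatagctcaggaccagcattttcacccc
Dynlt2a3 (chromosome 17, 14964242, reverse strand): ttggtgtttgctctctattgtgaatagctc
The Dynlt1b and Dynlt1f ends are letter for letter the same, and 764 of the 771 aligned bases of these transcripts are identical. Their ATTAAA in capitals lies 0 bases from the annotated end, and an AATAAA upstream of it stays in lower case. Which of these serves as the signal was not tested. The annotated end of Dynlt2a2 lies 30 bases short of the Dynlt2a1 end within the Dynlt2a1 sequence, and that of Dynlt2a3 lies 50 bases short of it. Aligned over 683 bases, Dynlt2a1 (ENSMUST00000040746) and Dynlt2a2 are identical, and 662 of 663 aligned bases of Dynlt2a1 and Dynlt2a3 are. AATAAA or ATTAAA, searched on the transcript strand, was in the last 30 bases of 22 of 42 members tested for tails (52.4%) and of 4692 of the 6901 tested transcripts that the annotation holds (68.0%). The median tail difference was 17.3 nt over the 22 members with a signal and 31.6 nt over the 20 without, against 37.4 nt and 37.0 nt over all transcripts tested with and without one.

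The samples held between 244004 and 474688 reads, and the members took between 1.65% and 1.73% of them. The counts equalled the reads of the tail table for every transcript and sample. Transcripts of 10 genes that mark pachytene and diplotene spermatocytes, 8 of which had reads, took 0.174% to 0.182% of P/D reads and 0.0528% to 0.0661% of RS reads. Those of 10 round spermatid genes, all with reads, took 0.0789% to 0.103% of P/D reads and 0.324% to 0.343% of RS reads. Those of 10 genes listed for elongating spermatids, such as Prm1 and Tnp1, took 0.192% to 0.258% and 2.42% to 2.93%. The authors state that protamine and transition protein mRNAs are already made in RS. These shares therefore do not show how many elongating spermatids were present. The part of other cell types in the differences given here was not tested. Of 8 Sertoli cell genes 3 had reads, with Sox9, Amh, Rhox5, Wt1 and Gata4 at 0, of 8 spermatogonial genes 1 did, of 5 Leydig cell genes 1 did, and the 6 genes of peritubular, blood and vessel cells had none. No sample held more than 7 reads of any of these 4 lists.

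Reads of the motor genes carried longer tails in RS. Over every member read, the median tail was 83.7, 83.5 and 80.7 nt (P/D replicates) against 139, 138 and 142 nt (RS replicates). Tails of at least 120 and below 210 nt made up 25.6, 27.1 and 24.6% (P/D replicates) against 60.2, 58.3 and 60.3% (RS replicates). The share averaged 25.7% ± 1.28 for P/D against 59.6% ± 1.11 for RS (± SD, n = 3), and the samples of the cell types did not overlap. Tails of at least 30 and below 120 nt were 63.0% ± 2.24 of the P/D reads and 34.6% ± 1.63 of the RS reads, and those under 30 nt were 5.65% ± 0.844 and 0.169% ± 0.0502 (± SD, n = 3). These are descriptions without a test, and the same share over the reads of all transcripts is not given. The authors report that tails lengthened for most transcripts between these cell types. Of the 33138 member reads, 27077 (81.7%) lay on dynein light chains and 11896 (35.9%) on Dynlt2a1 alone. Without Dynlt2a1 the share with 120 to 210 nt was 28.7% ± 1.99 and 58.2% ± 0.923 (± SD, n = 3).

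The mean tail of each transcript was compared across the samples with limma, fitted on all 6990 annotated transcripts with a depth of 10 reads or more in 2 or more replicates of either cell type, and with a mean for no fewer than 2 replicates of both. Of 42 members tested, from 32 genes, 22 were longer in RS (Benjamini-Hochberg adjusted p below 0.05), 1 was shorter and 19 did not pass. Small differences are at the limit of this test with 3 samples a group, and the 19 are not shown to be equal. The 52.4% of members called longer stood beside 54.2% of all transcripts tested, and the 2.38% called shorter beside 1.69%. The median difference was 19.4 nt over these members and 37.4 nt over all transcripts tested. Of the 42, 16 had at least 10 reads in 2 replicates of RS and not of P/D spermatocytes. Among the 19 members that reached 20 reads in all samples, 15 were longer, 1 was shorter and 3 did not pass, with a median difference of 32.6 nt. Of all 1827 transcripts with that depth, 82.3% were longer and 1.31% shorter, and their median difference was 49.9 nt. The mean tails of these 19 members spread from 84.7 to 149 nt in P/D spermatocytes and from 98.7 to 182 nt in RS, as the plot of mean tails by transcript shows.

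**Figure D1:**
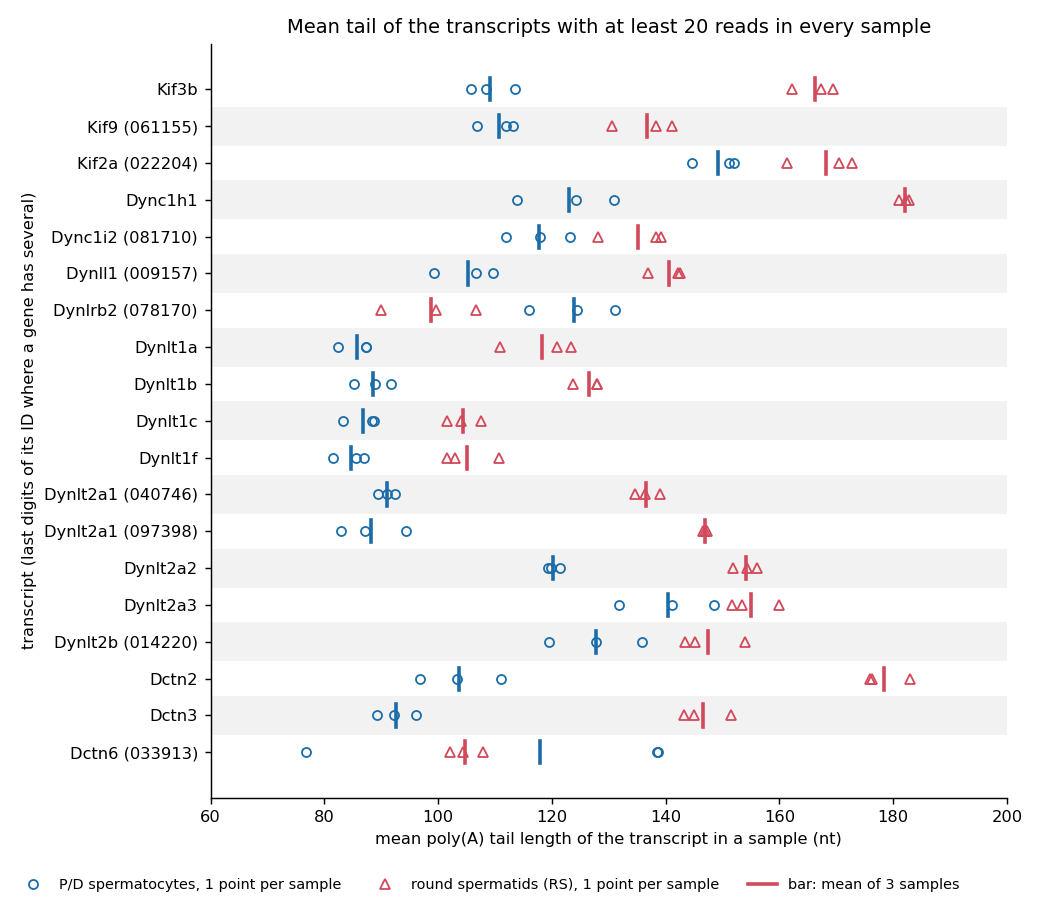
Mean poly(A) tail length in nt (x axis) of the 19 member transcripts that reached 20 reads in all samples (y axis), with 1 point for each P/D sample (circles) and RS sample (triangles) and a bar at the mean of 3 samples. The RS samples lie above every P/D sample for 17 transcripts, below them for Dynlrb2, and between them for Dctn6, whose P/D replicate 3 sits at 76.8 nt. Of all 1827 transcripts with that depth 82.3% were called longer, and their share without overlap is not given.

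Of 16 kinesin transcripts tested, 8 had longer tails in RS, beside 54.2% of all transcripts tested, and none had shorter ones. Both chains of the heterodimeric kinesin-2 motor, which carries intraflagellar transport toward the flagellar tip, were among them. Kif3b (chromosome 2, 153291413 to 153333390) had mean tails of 113, 108 and 106 nt for P/D replicates 1 to 3, against 169, 162 and 167 nt for RS replicates 1 to 3. The groups did not overlap, and the difference was 57.1 nt (SE 5.64, adjusted p = 0.000557). Its partner in the same motor, Kif3a, was read with 9, 26 and 21 P/D reads against 17, 38 and 9 RS reads. Kif3a differed by 46.9 nt (SE 10.7, adjusted p = 0.0107). The homodimeric kinesin-2 Kif17 had 5, 3 and 2 P/D reads against 37, 70 and 67 RS reads, and its tails, already 151 to 166 nt at P/D, differed by 17.0 nt (SE 6.49, adjusted p = 0.0667). That difference did not pass the threshold, and without P/D replicate 2 it did (21.9 nt, adjusted p = 0.0216). The kinesin-9 Kif9, a motor of the sperm axoneme, had tails of 113, 112 and 107 nt (P/D replicates) against 141, 131 and 138 nt (RS replicates) on ENSMUST00000061155 (chromosome 9, 110476994 to 110524234). The groups did not overlap, and the difference was 25.9 nt (SE 5.87, adjusted p = 0.0104).

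The kinesin-13 proteins remove tubulin from microtubule ends, and 1 of their 4 transcripts tested was called longer. Kif2a (ENSMUST00000022204, chromosome 13, 106958996 to 107022118) had tails of 152, 145 and 151 nt (P/D replicates) against 173, 161 and 170.4 nt (RS replicates). Its groups did not overlap, its P/D tails were the longest of the 19 well-read members, and it differed by 18.9 nt (SE 6.07, adjusted p = 0.0380). This call was lost without P/D replicate 2, P/D replicate 3, RS replicate 1 or RS replicate 3 (values then 16.7 to 19.9 nt, adjusted p from 0.0554 to 0.118), and with the median tail (21.6 nt, adjusted p = 0.0612). Kif2c, which acts at centromeres, differed by 10.1 nt (SE 14.1, adjusted p = 0.576) on ENSMUST00000065896, with P/D means between 109 and 164 nt, and passed without P/D replicate 1 (25.4 nt, adjusted p = 0.0383). Kif2b, a single-exon gene, had 5 to 15 reads in each P/D sample with means of 152 to 219.6 nt, and its difference of -16.3 nt (SE 17.0, adjusted p = 0.455) did not pass. The kinesin-8 Kif18b, a spindle motor, lay at 85.5 ± 9.71 nt for P/D against 114 ± 13.7 nt for RS (± SD, n = 3) and differed by 28.5 nt (SE 9.33, adjusted p = 0.0408) resting on 2 to 6 reads in each P/D sample. This call was lost without P/D replicate 1, P/D replicate 3, RS replicate 2 or RS replicate 3 (values then 23.2 to 29.7 nt, adjusted p from 0.0673 to 0.114). The kinesin-6 genes Kif20a and Kif23 act in the central spindle during cytokinesis. None of their 3 transcripts tested passed the threshold, with differences from -36.9 to 2.94 nt. The lowest of these, Kif20a ENSMUST00000167161, had 13, 9 and 7 P/D reads against 13, 15 and 11 RS reads and passed as shorter without P/D replicate 1 (-50.9 nt, adjusted p = 0.0401) and with the median tail (-51.5 nt, adjusted p = 0.0308).

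Of 4 transcripts tested for the heavy, intermediate and light intermediate chains, that of the heavy chain alone was called longer, and it carried the longest RS tails of the well-read members. Dync1h1 (chromosome 12, 110601452 to 110666945), the motor subunit, had mean tails of 124, 114 and 131 nt for P/D replicates 1 to 3, against 181, 182 and 183 nt for RS replicates 1 to 3. Its RS samples lay close together above every P/D sample, and the difference was 59.1 nt (SE 6.46, adjusted p = 0.000679). In the P/D samples 49.4% ± 9.27 of its reads had tails of 30 to 120 nt, and in the RS samples 1.45% ± 2.51 did (± SD, n = 3). Dync1i2, an intermediate chain that ties the motor to dynactin, was less clear. Its transcript ENSMUST00000081710 had tails of 112, 123 and 118 nt (P/D replicates) against 139, 128 and 138 nt (RS replicates). The groups did not overlap, yet the difference of 17.5 nt (SE 6.39, adjusted p = 0.0578) missed the threshold, and it passed without P/D replicate 2 (20.3 nt, adjusted p = 0.0493). Dync1li2, a light intermediate chain that binds cargo adaptors, had P/D tails of 149 ± 4.27 nt (SD, n = 3) and differed by 12.6 nt (SE 5.81, adjusted p = 0.113), which did not pass.

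Of 17 light chain transcripts tested, 9 were called longer and 1 shorter, beside 54.2% and 1.69% of all transcripts tested. Among light chains outside the Dynlt1 and Dynlt2a families, Dynll1 was the most read. Dynll1 (chromosome 5, 115297110 to 115300999) encodes an LC8 light chain, a small dimer that also binds many proteins besides dynein. ENSMUST00000009157 had tails of 107, 109.6 and 99.4 nt (P/D replicates) against 143, 137 and 142 nt (RS replicates). Its groups did not overlap, and the difference was 35.3 nt (SE 5.82, adjusted p = 0.00295). Dynlt2b, whose protein belongs to the dynein that returns cargo from the tip of cilia and flagella, had tails of 136, 119.6 and 128 nt (P/D replicates) against 145, 143 and 154 nt (RS replicates) on ENSMUST00000014220. Its groups did not overlap, the difference was 19.8 nt (SE 6.85, adjusted p = 0.0488), and the call was lost without P/D replicate 2, P/D replicate 3, RS replicate 1, RS replicate 2 or RS replicate 3 (values then 15.7 to 21.9 nt, adjusted p from 0.0735 to 0.131).

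Dynlrb2, a roadblock-type light chain whose name comes from a fly transport mutant, went the other way. ENSMUST00000078170 (chromosome 8, 116505015 to 116515915) had mean tails of 131, 124 and 116 nt for P/D replicates 1 to 3, against 107, 99.6 and 90.0 nt for RS replicates 1 to 3. Every RS sample was below every P/D sample, and the difference was -25.1 nt (SE 7.33, adjusted p = 0.0271). The share of its reads with tails of 120 to 210 nt was 37.7% ± 1.13 for P/D against 23.9% ± 5.57 for RS, and with 30 to 120 nt 44.6% ± 4.39 and 71.6% ± 8.72 (± SD, n = 3). In bins of 15 nt its reads were most frequent at 105 to 120 nt in P/D spermatocytes and at 75 to 90 nt in RS. The call was lost without P/D replicate 1, P/D replicate 2, RS replicate 2 or RS replicate 3 (values then -25.5 to -20.7 nt, adjusted p from 0.0534 to 0.0778), and the direction stayed the same in each. A rarer Dynlrb2 transcript with the same annotated end, ENSMUST00000213007, had 9, 6 and 7 P/D reads against 8, 16 and 10 RS reads and a difference of 13.4 nt (SE 18.7, adjusted p = 0.576), which did not pass. With the reads of both transcripts together the mean was 122 ± 9.78 nt and 101 ± 9.28 nt (± SD, n = 3), and the difference was -21.0 nt (adjusted p = 0.0592), which did not pass.

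**Figure D2:**
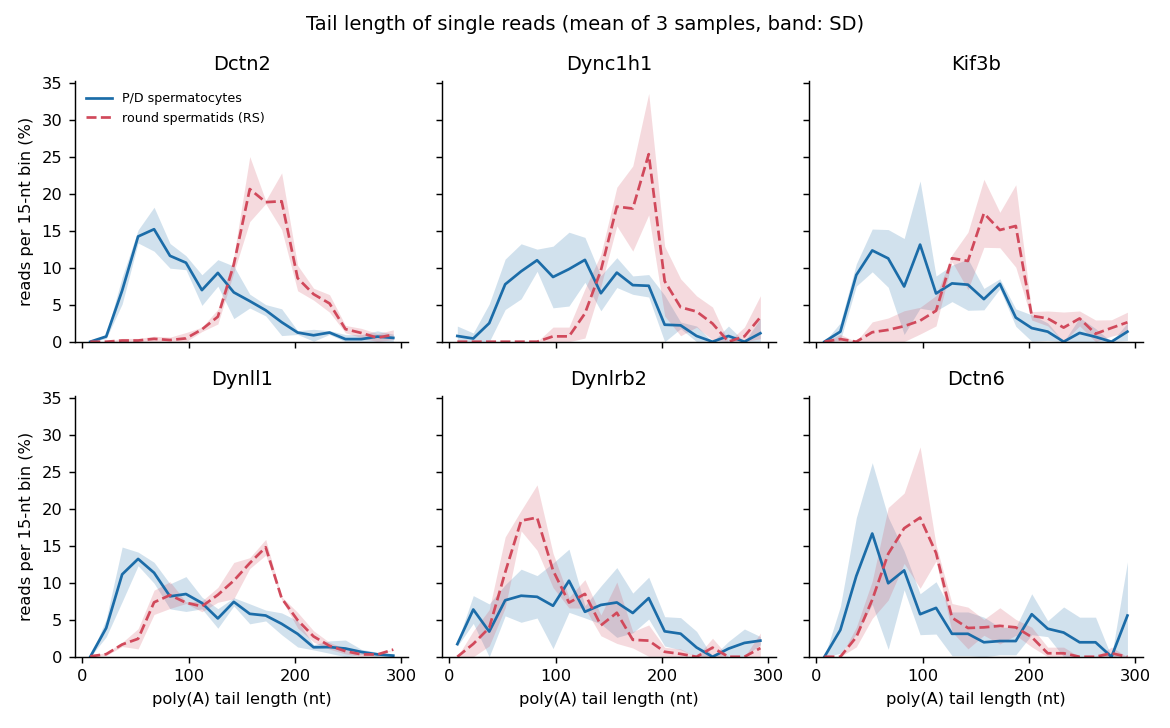
Percent of reads (y axis, mean of 3 samples, band: SD) in each 15-nt bin of poly(A) tail length in nt (x axis, the last bin holding 285 nt and more) for the most-read transcript of 6 member genes, in P/D spermatocytes (solid) and RS (dashed). Dctn2, Dync1h1, Kif3b and Dynll1 reads peak between 150 and 195 nt in RS, whereas Dynlrb2 and Dctn6 reads peak at 75 to 90 and 90 to 105 nt. In P/D spermatocytes the Dynlrb2 peak is higher, at 105 to 120 nt, and the Dctn6 peak is lower, at 45 to 60 nt.

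The Tctex1 light chain genes Dynlt1a, Dynlt1b, Dynlt1c and Dynlt1f lie in a cluster on chromosome 17 (from 6307994 to 6655900) and are so alike (98.6% to 99.9% of aligned bases identical) that a read could be placed on the wrong copy, so their separate values are uncertain. Dynlt1a had tails of 82.5, 87.3 and 87.4 nt (P/D replicates) against 121, 111 and 123 nt (RS replicates). Dynlt1b had tails of 89.0, 91.7 and 85.2 nt (P/D replicates) against 128, 124 and 128 nt (RS replicates). These copies gained 32.6 nt (SE 6.07, adjusted p = 0.00484) and 37.9 nt (SE 5.40, adjusted p = 0.00166). Dynlt1c had tails of 88.4, 88.7 and 83.3 nt (P/D replicates) against 104, 102 and 107 nt (RS replicates). Dynlt1f had tails of 85.6, 87.0 and 81.4 nt (P/D replicates) against 102, 103 and 111 nt (RS replicates). They differed by 17.6 nt (SE 5.43, adjusted p = 0.0335) and 20.4 nt (SE 5.72, adjusted p = 0.0237), while the P/D means of all 4 copies lay between 84.7 and 88.6 nt. The differences between copies were not tested. The Dynlt1c call was lost without P/D replicate 3, RS replicate 1, RS replicate 2 or RS replicate 3 (values then 15.8 to 19.0 nt, adjusted p from 0.0592 to 0.0904), and the Dynlt1f call without P/D replicate 3 or RS replicate 3 (values then 17.5 to 18.7 nt, adjusted p from 0.05003 to 0.0697). Taking the 7180 reads of the family together avoids the question of which copy they came from. The mean tail was then 86.3, 88.9 and 84.3 nt (P/D replicates) against 115, 112 and 120.1 nt (RS replicates), with no overlap. Tails under 30 nt were 11.1% ± 0.691 of the family's P/D reads and 0.133% ± 0.0601 of its RS reads, and tails of 120 to 210 nt were 18.6% ± 1.03 and 36.9% ± 1.65 (± SD, n = 3), values given without a test.

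The Dynlt2a genes, an older annotation's Tcte3 and its copies, encode Tctex2-type light chains and lie on chromosome 17 between 14964242 and 15041488. Dynlt2a1 was the most-read member gene. Its transcript ENSMUST00000040746 (1552, 1994 and 1793 P/D reads against 1669, 2541 and 1899 RS reads) had tails of 92.5, 89.4 and 90.9 nt (P/D replicates) against 136, 135 and 139 nt (RS replicates). The groups did not overlap, and the difference was 45.7 nt (SE 5.21, adjusted p = 0.000772). A shorter Dynlt2a1 transcript, ENSMUST00000097398, had tails of 87.2, 94.3 and 83.0 nt (P/D replicates) against 147, 147 and 147 nt (RS replicates). It differed by 58.7 nt (SE 5.72, adjusted p = 0.000544). Dynlt2a2 had tails of 121, 119.9 and 119 nt (P/D replicates) against 154, 152 and 156 nt (RS replicates). Its P/D tails were longer than those of Dynlt2a1 in every sample, and the difference was 33.9 nt (SE 5.17, adjusted p = 0.00216). Dynlt2a3 had tails of 132, 141 and 148 nt (P/D replicates) against 152, 154 and 159.9 nt (RS replicates). With the longest P/D tails of the family, it differed by 14.6 nt (SE 6.70, adjusted p = 0.112), which did not pass. The order of the P/D means, Dynlt2a1 below Dynlt2a2 below Dynlt2a3, is the order in which their annotated ends recede from the signal printed above, and the part of read assignment in it was not tested. Over the 15345 reads of the family together, the mean tail was 98.0, 96.3 and 96.9 nt (P/D replicates) against 141, 139 and 144 nt (RS replicates), again without overlap.

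**Figure D3:**
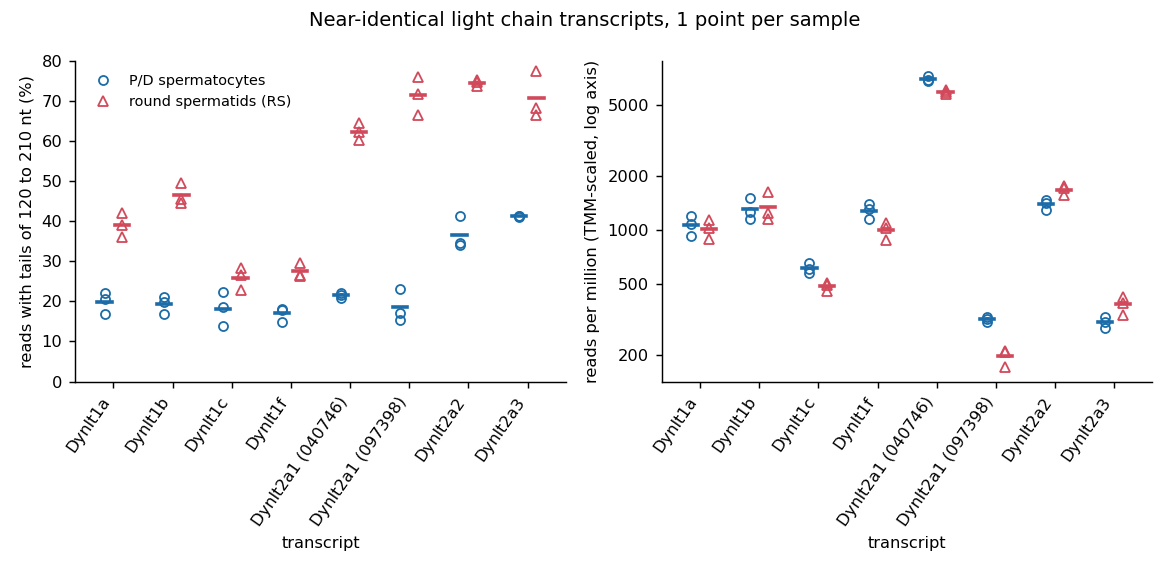
Percent of reads with tails of 120 to 210 nt (left) and accumulation in TMM-scaled CPM on a log axis (right) for the near-identical Dynlt1 and Dynlt2a transcripts, with 1 point for each P/D sample (circles) and RS sample (triangles) and a bar at the mean of 3. The RS samples exceed every P/D sample in tail share for all 8 transcripts, by least for Dynlt1c (22.3% in P/D replicate 2 and 22.9% in RS replicate 1). Reads could be placed on the wrong copy, so these are not 8 separate observations. The same share over all transcripts is not given.

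Of 5 dynactin transcripts tested, 4 were called longer, beside 54.2% of all transcripts tested. These 4 held the largest difference among the members. Dctn2 (chromosome 10, 127266387 to 127281950), the dynamitin subunit of the shoulder that joins dynactin's arm to its filament, had mean tails of 103, 111 and 96.8 nt for P/D replicates 1 to 3, against 176, 176 and 183 nt for RS replicates 1 to 3. The groups did not overlap, and the difference of 74.7 nt (SE 6.32, adjusted p = 0.000490) was larger than that of 91.9% of all transcripts tested. In P/D spermatocytes 65.7% ± 6.42 of its reads had tails of 30 to 120 nt, and in RS 3.06% ± 1.23 did (± SD, n = 3). Dctn3, another shoulder subunit, had tails of 96.1, 89.2 and 92.3 nt (P/D replicates) against 151, 143 and 145 nt (RS replicates). Its groups were as clearly apart, with a difference of 54.0 nt (SE 5.68, adjusted p = 0.000636). Dctn5 and Dctn4, from the end of the filament that binds cargo, were longer by 65.0 nt (SE 8.41, adjusted p = 0.00117) and 53.1 nt (SE 10.7, adjusted p = 0.00670), with 14 to 24 and 10 to 19 reads in each P/D sample. Dctn6, which pairs with Dctn5 in the complex, stood apart from the other subunits. Its transcript ENSMUST00000033913 had tails of 139, 138 and 76.8 nt (P/D replicates) against 108, 102 and 104 nt (RS replicates). The RS samples lay together between 102 and 108 nt, while P/D replicate 3, with 20 reads, lay far below the other P/D samples. The difference of -13.1 nt (SE 17.5, adjusted p = 0.555) did not pass, and without P/D replicate 3 it was -33.7 nt (adjusted p = 0.00595). With tails outside 10 to 300 nt removed it was -2.24 nt (adjusted p = 0.910). Dctn1, the arm that grips the microtubule, had 5 to 11 reads in a sample and was not tested.

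Genes with several transcripts tested were compared side by side, without a test between transcripts. The 3 Kif27 transcripts, from a kinesin-4 gene related to the Hedgehog regulator Kif7, all had longer tails in RS, by 40.1 nt (SE 11.5, adjusted p = 0.0259) for ENSMUST00000043605, 54.7 nt (SE 12.1, adjusted p = 0.00945) for ENSMUST00000224694 and 67.7 nt (SE 7.94, adjusted p = 0.000837) for ENSMUST00000225388. Their P/D means rested on 4 to 9 reads in each sample, and the smallest of these gains was lost as a call without P/D replicate 2, P/D replicate 3 or RS replicate 3 (values then 33.0 to 36.1 nt, adjusted p from 0.0651 to 0.0753) and with the median tail (46.1 nt, adjusted p = 0.112). ENSMUST00000224694 was no longer called with the median tail (41.1 nt, adjusted p = 0.150), and without RS replicate 2 or RS replicate 3 it had too few reads to be tested. With 10 reads asked of both cell types none of the 3 was tested. The Kif9 transcripts end 945 bases apart, and the one with the distal end, ENSMUST00000084952, differed by -8.92 nt (SE 16.1, adjusted p = 0.666), against 25.9 nt for the proximal one. Both Dync1li2 transcripts were close, at 12.6 and 17.9 nt. The Dynll2 transcripts share their annotated end and differed by 3.90, 9.75 and 12.8 nt, none past the threshold. The Kif2c transcripts differed by 10.1 and 14.8 nt, and the Kif20a transcripts by -36.9 and 2.94 nt. Dynlt3 and Dynlt5, further Tctex1-type light chains, had 4 P/D reads each over all their transcripts. The tested Dynlt5 transcript, ENSMUST00000125417, had only 1, 1 and 0 P/D reads. The tested transcripts of Dynlt3 and Dynlt5 differed by -13.7 nt (SE 11.2, adjusted p = 0.350) and 30.5 nt (SE 15.8, adjusted p = 0.162). For these and for Kif2c ENSMUST00000106436, 1 P/D sample had no read and the fit used the other 2.

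Accumulation was compared with edgeR's quasi-likelihood test on the counts of 6005 annotated transcripts. Of 35 members tested, from 30 genes, 15 were higher in RS, 9 lower and 11 not past the threshold. The 42.9% called higher stood beside 32.6% of all transcripts tested, and the 25.7% called lower beside 30.8%. Of the 15, 9 had at least 10 reads in 2 replicates of RS and not of P/D spermatocytes, so that passing the filter already tied them to RS. Among the 25 members with that depth in both cell types, 6 were higher and 8 lower, and the log2 fold changes ran from -1.39 to 0.86. In sorted cells, fewer cells of a type and less RNA in each cell cannot be told apart, and the values compare shares of a library.

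A few motors were many times more abundant in RS. Kif2b had 5, 15 and 5 P/D reads against 170, 244 and 179 RS reads, and lay at 31.5 ± 17.8 CPM (P/D) against 576 ± 8.09 CPM (RS), as mean ± SD with n = 3. The samples of the cell types did not overlap, and the log2 fold change was 4.12 (SE 0.23, adjusted p = 3.15e-19), which is 17.4-fold. Without P/D replicate 2, which held most of its P/D reads, the log2 fold change was 4.75, or 26.9-fold (adjusted p = 2.65e-16). Kif17, known in testis as a carrier of a transcriptional coactivator, went from 13.5 ± 7.44 to 168 ± 43.4 CPM (± SD, n = 3), which gave a log2 change of 3.64 (SE 0.36, adjusted p = 1.20e-11), with the reads given above. Dynll2, the other LC8 light chain, was higher on each of its 3 transcripts. ENSMUST00000107923 had 4, 12 and 3 P/D reads against 88, 139 and 110 RS reads. ENSMUST00000178105 had 6, 9 and 3 P/D reads against 80, 130 and 82 RS reads. ENSMUST00000020775 had 3, 7 and 6 P/D reads against 31, 75 and 46 RS reads. Their log2 fold changes were 3.69 (SE 0.27, adjusted p = 2.53e-15), 3.55 (SE 0.28, adjusted p = 1.13e-14) and 2.77 (SE 0.33, adjusted p = 1.42e-09). Without P/D replicate 2 that of ENSMUST00000107923 was 4.44, or 21.6-fold (adjusted p = 3.82e-13). No P/D sample of any of them reached the lowest RS sample. Dynll1, by contrast, was read in both cell types and rose by 0.65 on the log2 scale (SE 0.11, adjusted p = 2.05e-06). The Dynlt5 transcript ENSMUST00000030248 had 1 P/D read in all and 73 RS reads, a ratio of 52.3 per read sequenced (95% exact interval 9.09 to 2092, counting error only).

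**Figure D4:**
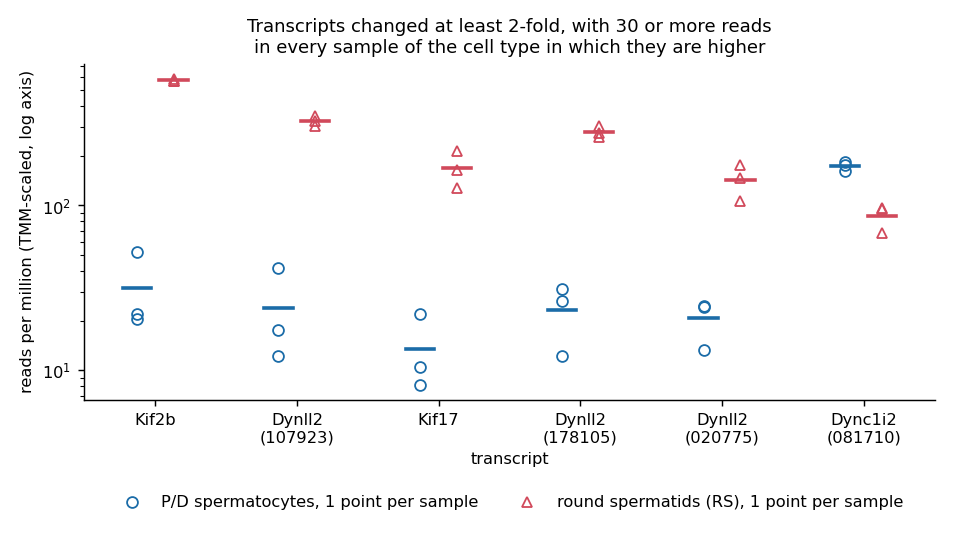
Accumulation in TMM-scaled CPM (counts per library size, y axis, log scale) of the 6 member transcripts (x axis) that passed the threshold with at least a 2-fold change and at least 30 reads in each sample of their higher cell type, with 1 point for each P/D sample (circles) and RS sample (triangles) and a bar at the mean of 3. Only Dync1i2 is lower in RS. The samples do not overlap for any of them, which follows largely from choosing them by their change and is no separate support. The same share over all transcripts is not given.

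Other kinesin transcripts that were higher in RS were Kif27 ENSMUST00000225388 (log2 fold change 2.07, SE 0.38, adjusted p = 8.14e-06), Kif27 ENSMUST00000043605 (1.03, SE 0.37, adjusted p = 0.0132), Kif18b (1.93, SE 0.41, adjusted p = 6.89e-05), Kif9 ENSMUST00000061155 (0.86, SE 0.18, adjusted p = 4.43e-05), Kif2a (0.43, SE 0.18, adjusted p = 0.0387) and Kif3b (0.43, SE 0.19, adjusted p = 0.0497). The Kif2a call was lost without P/D replicate 1, P/D replicate 2, P/D replicate 3 or RS replicate 2 (values then 0.22 to 0.44 on the log2 scale, adjusted p from 0.0722 to 0.324), the Kif3b call without P/D replicate 1, P/D replicate 2, RS replicate 1 or RS replicate 3 (values then 0.23 to 0.46 on the log2 scale, adjusted p from 0.0517 to 0.360) and the Kif27 ENSMUST00000043605 call without P/D replicate 3 (value then 0.86, adjusted p = 0.0709). With DESeq2 these 3 did not pass (adjusted p = 0.0969, 0.0985 and 0.0729). Kif2c and Kif3a were not past the threshold, at 0.37 (SE 0.29, adjusted p = 0.258) and -0.25 (SE 0.33, adjusted p = 0.510). The kinesin transcript called lower was Kif20a ENSMUST00000237407, with 10, 15 and 16 P/D reads against 6, 11 and 8 RS reads. It had 10 reads in 2 replicates of P/D spermatocytes and not of RS, so that passing on depth already tied it to P/D spermatocytes. It differed by -1.14 (SE 0.35, adjusted p = 0.00471) on the log2 scale with edgeR, and with DESeq2 the adjusted p was 0.0652. The other Kif20a transcripts were not tested for accumulation. Their mean CPM in P/D and RS were 39.0 and 38.3 (ENSMUST00000167161), 15.6 and 19.5 (ENSMUST00000166044), and 8.81 and 8.09 (ENSMUST00000237481).

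The heavy and intermediate chains of dynein were lower in RS, and the light intermediate chain was not called. Dync1i2 had 37, 53 and 43 P/D reads against 28, 29 and 30 RS reads, and lay at 174 ± 10.5 CPM (P/D) against 86.7 ± 16.3 CPM (RS), as mean ± SD with n = 3. Its samples did not overlap, with a log2 fold change of -1.03 (SE 0.22, adjusted p = 9.66e-05). Dync1h1, with 43, 77 and 58 P/D reads against 46, 66 and 37 RS reads, differed by -0.69 (SE 0.19, adjusted p = 0.00197), and Dync1li2 by 0.23 (SE 0.24, adjusted p = 0.402), which did not pass. Dynactin subunits did not move together. Dctn2 had 189, 195 and 178 P/D reads against 147, 206 and 177 RS reads, a log2 fold change of -0.52 (SE 0.13, adjusted p = 0.000376). Dctn5 had 14, 19 and 24 P/D reads against 10, 8 and 11 RS reads, a log2 fold change of -1.39 (SE 0.34, adjusted p = 0.000473). Dctn3 was higher, with 33, 44 and 27 P/D reads against 62, 84 and 75 RS reads and a log2 fold change of 0.66 (SE 0.20, adjusted p = 0.00370). Dctn4 (-0.53, SE 0.32, adjusted p = 0.152) and Dctn6 (0.49, SE 0.22, adjusted p = 0.05001) did not pass. Dctn6 did without RS replicate 1 (0.59, adjusted p = 0.0281) and with 10 reads asked of every sample (0.69, adjusted p = 0.00992).

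The Dynlt1 and Dynlt2a genes had log2 fold changes between -0.69 and 0.33. On the log2 scale Dynlt2a1 differed by -0.25 (SE 0.08, adjusted p = 0.00624) for ENSMUST00000040746 and -0.69 (SE 0.17, adjusted p = 0.000392) for ENSMUST00000097398, while Dynlt2a2 was higher, at 0.27 (SE 0.10, adjusted p = 0.0192), and Dynlt2a3 did not pass, at 0.33 (SE 0.15, adjusted p = 0.0531). Dynlt1c and Dynlt1f were lower, at -0.33 (SE 0.13, adjusted p = 0.0214) and -0.37 (SE 0.11, adjusted p = 0.00362), and Dynlt1a and Dynlt1b did not pass, at -0.07 (SE 0.11, adjusted p = 0.610) and 0.04 (SE 0.12, adjusted p = 0.793). Since reads could be split among the copies, opposite signs within a family are uncertain. The Dynlt1c call was lost without P/D replicate 3, RS replicate 1, RS replicate 2 or RS replicate 3 (values then -0.32 to -0.24 on the log2 scale, adjusted p from 0.0556 to 0.139), the Dynlt1f call without RS replicate 2 (value then -0.23, adjusted p = 0.0898), the Dynlt2a1 ENSMUST00000040746 call without RS replicate 3 (value then -0.21, adjusted p = 0.0561) and the Dynlt2a2 call without P/D replicate 1 (value then 0.17, adjusted p = 0.185). Dynlt2a3 passed as higher without P/D replicate 2 (0.40, adjusted p = 0.0451) and without RS replicate 1 (0.44, adjusted p = 0.0186). With DESeq2, Dynlt1c, Dynlt1f and Dynlt2a1 ENSMUST00000040746 did not pass (adjusted p = 0.155, 0.0629 and 0.109). With edgeR and 10 reads asked of every sample they were nearer to no change, at -0.14, -0.17 and -0.05 (adjusted p = 0.359, 0.181 and 0.622), and did not pass. In the main fit Dynlrb2 and Dynlt2b, at 0.26 (SE 0.16, adjusted p = 0.157) and 0.08 (SE 0.14, adjusted p = 0.643), did not pass either. With 10 reads asked of every sample, Dynlrb2 (0.46, adjusted p = 0.0155) and Dynlt2a3 (0.53, adjusted p = 0.00377) passed as higher.

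Members with longer tails were found among those with higher and those with lower accumulation. Of the 34 members tested for both measures, 9 were longer and higher, 7 were longer and lower, and 5 were longer with no call in accumulation. Without a tail call, 5 were higher and 2 lower. Over all 5916 transcripts tested for both, 693 were longer and higher and 1164 longer and lower, and longer tails were called for 36.5% of the higher and 63.5% of the lower. Dctn2, Dctn5 and Dync1h1 combined gains of 59.1 to 74.7 nt with lower accumulation, whereas Kif3b, Dctn3, Dynll1 and Kif27 gained tail with higher accumulation. Those with the greatest rises in accumulation among the 34, Kif2b, Kif17 and Dynll2, made no tail call. Their few P/D reads already had mean tails between 127 and 182 nt over the 3 samples. Kif2b, Kif17 and Dynll2, and also Kif18b and Kif27, had at least 10 reads in 2 replicates of RS only. Passing the filter thus already tied their higher accumulation to RS, and they enter the correlations below. Over the 34 members Pearson's r between tail difference and log2 fold change was -0.33 and Spearman's rho -0.31, and over all transcripts tested for both they were -0.29 and -0.26. These correlations are across transcripts that come from the same 6 samples, and are given as a description.

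**Figure D5:**
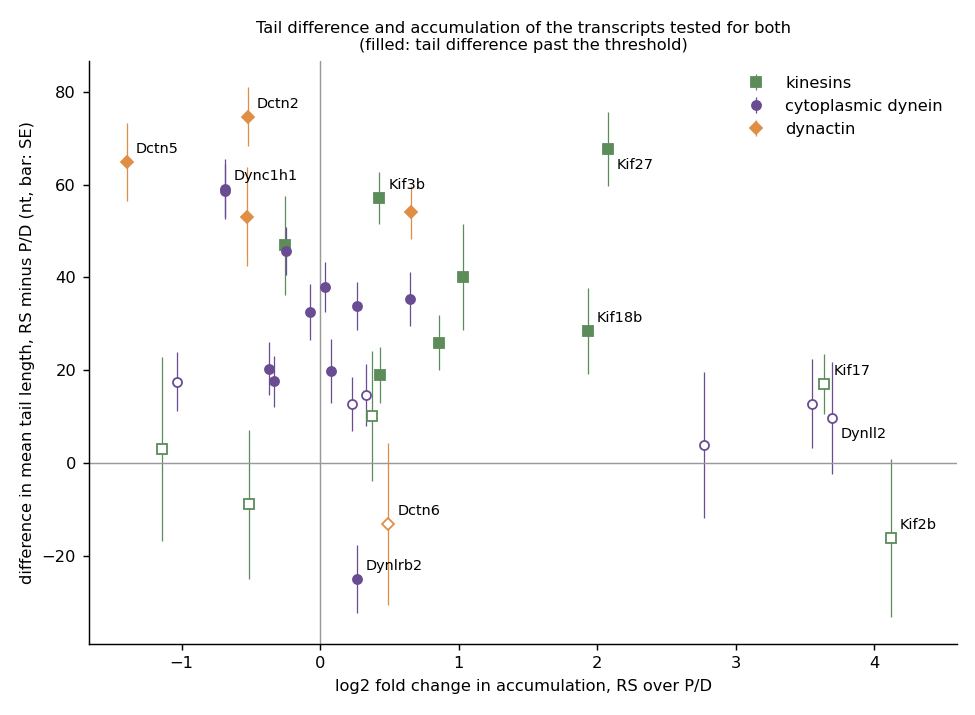
Difference in mean tail length, RS minus P/D, in nt (y axis, bar: SE) against the log2 fold change in accumulation, RS over P/D (x axis), for the 34 member transcripts tested for both, with kinesins as squares, all members with a dynein symbol as circles (labelled cytoplasmic dynein), dynactin as diamonds, and filled symbols for tail differences past the threshold. Dctn2 and Dctn5 lie at the upper left, with longer tails and lower accumulation, and Kif2b, Kif17 and Dynll2 lie at the right with tail differences between -16.3 and 17.0 nt that did not pass.

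Partners of the motors outside the naming rule were listed as a comparison: 44 genes of dynein adaptors, regulators, the dynactin filament, the second dynein and other kinesin subunits, of which 25 had a transcript under their own name and 3 were members under newer symbols. Of 21 transcripts tested for tails, 12 were longer, 1 was shorter and 8 did not pass, with a median difference of 41.1 nt, and of 19 tested for accumulation, 7 were higher, 5 lower and 7 did not pass. Over all transcripts tested, 54.2% were longer and 1.69% shorter, with a median difference of 37.4 nt. In accumulation 32.6% of all transcripts tested were higher and 30.8% lower. Actr1a, which builds the dynactin filament, gained 68.0 nt on ENSMUST00000040270 (SE 6.91, adjusted p = 0.000589) and fell by 0.63 on the log2 scale (adjusted p = 0.000775), the same directions as Dctn2. Its rarer transcript ENSMUST00000237742 gained 82.4 nt (SE 11.1, adjusted p = 0.00133). In accumulation that transcript went the other way, at 0.56 on the log2 scale (SE 0.35, adjusted p = 0.158), and did not pass. Kifap3, which links Kif3a and Kif3b to cargo, gained 42.2 nt (SE 6.41, adjusted p = 0.00213) and rose by 2.85 on the log2 scale (SE 0.26, adjusted p = 8.13e-13). Hook1, a dynein adaptor of the manchette, had the shorter tails among these partners, with a difference of -36.6 nt (SE 8.25, adjusted p = 0.0103) and a log2 fold change of 1.81 (SE 0.26, adjusted p = 9.24e-08).

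Of the 72 members, 30 were not tested for tails, with 1 to 74 reads each over the 6 samples, and 8 genes had no transcript tested. These were Dctn1 (45 reads), the kinesin-1 heavy chain Kif5c (7 reads), the kinesin light chains Klc2 (91), Klc3 (11) and Klc4 (27), Kif7 (78), the spindle motor Kif18a (44) and the chromosome-bound Kif22 (38). Kinesin-1 is the cell's main plus-end cargo motor, and Klc3 is known to sit on the mitochondria and outer dense fibers of the sperm tail. Over the kinesin-1 reads of Kif5c, Klc2, Klc3 and Klc4 together, 70 from P/D and 66 from RS, the mean tail was 90.7 ± 8.58 nt and 148 ± 0.834 nt (± SD, n = 3). Kif22 reads, 16 from P/D and 22 from RS, had means of 84.6 ± 15.3 nt and 84.0 ± 21.9 nt (± SD, n = 3). At this depth a difference in either was not tested.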

How the data were processed

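The samples were 3 of P/D spermatocytes and 3 of RS, each a pool of 3 mice, and p-values measure the spread between these pools. The authors sequenced native RNA, aligned reads to transcripts of an earlier GENCODE release than the one used here for positions and sequences, on mm10, with minimap2 (2.20-r1061 per the submitters' processing notes), estimated tails with Nanopolish and separated barcodes with Deeplexicon. The authors deposited raw read counts per transcript and the tail length of each read in nt, the latter without normalization.

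Annotated transcripts of the gene symbols were selected, and the 597 repeat contigs left out. Mean tails per transcript and sample were compared with limma 3.58.1 and counts with edgeR 4.0.16 (quasi-likelihood, TMM factors, filterByExpr) in R 4.3.3, with Benjamini-Hochberg adjustment over all annotated transcripts tested and a threshold of 0.05. CPM are TMM-scaled. DESeq2 1.42.0, other filters, scales and tail bounds, pooling of a gene's reads, a replicate block and leaving out each sample were alternatives. Figures and tables used Python 3.11.15, pandas 2.3.3 and matplotlib 3.10.9, and alignments Biopython 1.88. The fits were tested on simulated data with shifts of random sign and a fixed spread between replicates beyond that of read sampling. Tail shifts were there estimated without bias and false calls stayed rare. This need not hold in the real data, where the called differences were mostly longer. The smallest simulated shifts, of 20 nt, are near the smallest differences called here and were not recovered. Larger shifts were recovered less often in transcripts with few reads in a cell type. A tail difference that did not pass is thus not shown to be absent. The members and lists were chosen with earlier results of these data known, and Dynlt2a1, Dynlt2a2, Dynlt2a3, Dynlt2b and Dynlt5 were placed among the light chains after their symbols were read. Every member gene is named. Transcripts that reached 20 reads in all samples are given with each sample's mean tail, called changes in accumulation of at least 1 in log2 that reached 30 reads in each sample of the higher cell type with each sample's reads, and any called shorter tail with its values. Of the member reads, 0.178% were listed on more than 1 contig.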

Additional observations from a re-analysis of the deposited data

How the results depend on the processing

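Of 352 values of named transcripts under alternatives, 314 kept their direction and side of the threshold, 29 kept the direction and no longer passed, 9 newly passed and 0 turned. With the other read filters, the equal-variance test and the replicate block, the tail differences of these transcripts stay the same and only the p-value can change. Their direction could not turn there, so the count of 0 says nothing about those alternatives. The 22 longer tails became 15 to 22 when a replicate was left out, 16 with the replicate number as a block and 20 to 24 with the other scales, tests and filters but that for 10 reads in both cell types (19). The single shorter tail became 2 with the median tail, 2 with the replicate block, 0 with the reads of a gene pooled and 0 to 2 without a replicate. With DESeq2, 12 members were higher and 5 lower, against 15 and 9, and with a minimum of 10 reads per sample 9 and 4. Without a replicate 14 to 20 were higher and 7 to 9 lower, and with the block 17 and 9. With the replicate block the longer calls of Dynlt1c (adjusted p = 0.1003), Dynlt1f (0.0775), Dynlt2b (0.0903), Kif18b (0.0736), Kif27 ENSMUST00000043605 (0.0633) and Kif2a (0.0735) did not pass, Kif20a ENSMUST00000167161 passed as shorter (0.0222), and Dctn6 (0.0473) and Dynlt2a3 (0.0456) passed as higher in accumulation. Both cell types came from the same mice, but the sources do not tie a number to the same mice in both. Not every pair of same-numbered samples deviated together (correlations of -0.011, 0.077 and 0.016 for tails, and 0.028, 0.237 and 0.069 for log2 CPM), not every sample correlated best with its own number, and the numbers were not taken as pairs. The share of reads with 120 to 210 nt, 25.7% in P/D spermatocytes and 59.6% in RS, was 20.41% and 48.56% with bounds of 120 to 180 nt, 33.42% and 70.58% with 100 to 200 nt, 31.3% and 61.24% with every transcript weighted equally, and 28.74% and 58.16% without Dynlt2a1. Dynlt2b was not called longer by the methods' test after adjustment (adjusted p = 0.0528), on the log2 scale (0.0593) or with the minimum of 3 reads (0.0547), Kif2a on the log2 scale (0.0669) and Kif18b by the methods' test (0.0787). Dynlt2a3 was called longer with the median tail (0.0405) and with tails of 10 to 300 nt (0.0207). The cause of these changes was not tested. Depth limits the members with under 10 reads in the P/D samples, whose mean tails rest on few molecules.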
